A study of Caenorhabditis elegans with 8 samples.

Results

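This is an account of the genotype by temperature interaction in *Caenorhabditis elegans* L4 hermaphrodites, that is, of the genes whose response to growth at 25ºC differed between *mut-16* mutants and wild-type animals. For each gene the interaction was the log2(fold change) between 25ºC and 20ºC in *mut-16* mutants minus the log2(fold change) between 25ºC and 20ºC in wild-type, so that a positive value means a heat effect that was higher in the mutant. All 8 mRNA-seq libraries of the L4 experiment entered it, in 4 groups of 2 biological replicates: *mut-16(pk710)* at 25ºC, *mut-16(pk710)* at 20ºC, wild-type (strain N2) at 25ºC and wild-type at 20ºC. Animals hatched in synchrony were grown on plates and collected as L4s, 39 h from plating in the 25ºC cultures or 56 h in the 20ºC ones, both approximate, so the temperature and the age in hours cannot be told apart. RNA was taken from whole animals and selected for polyadenylated transcripts. In bulk RNA of this kind, fewer cells of a type and less RNA per cell cannot be told apart.

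Of 46445 gene names in the files (repeated names left out), 13972 had enough counts to be tested, and the heat effect of 431 of them (3.08%) differed between the genotypes at an adjusted p of at most 0.05 (quasi-likelihood F-test of edgeR, adjusted by Benjamini-Hochberg, the source of every adjusted p below unless DESeq2 is named). It was higher in *mut-16* mutants for 222 genes (1.59% of those tested) and lower for 209 (1.5%). The median interaction of these genes was 1.35 in the higher direction and −1.40 in the lower one, against 0.0097 over all genes tested, and 365 of the 431 lay beyond 1 on the log2 scale. With total-count scaling in place of TMM, which moved the median of all genes to 0.19, the split was 517 higher and 139 lower (78.8% higher, against 51.5%). The largest adjusted p among the called genes was 0.04998 and the smallest among the others 0.0502.

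MUT-16 is the scaffold of the mutator foci, perinuclear compartments of germ cells in which RNA-dependent RNA polymerases make secondary small RNAs, the 22G-RNAs, on the transcripts that primary Argonautes have targeted. These 22G-RNAs are loaded onto worm-specific Argonautes, and they silence transposons, pseudogenes and many genes. The L4 stage is the time when a hermaphrodite germline makes sperm before it turns to oocytes, and when the epidermis prepares the last cuticle. The ALG-3 and ALG-4 Argonautes act with 26G-RNAs on spermatogenesis genes at this stage, and sperm made at an elevated temperature depend on them.

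The libraries held between 9914054 and 13227929 counts each, of which ribosomal RNA took between 9.83% and 14.3%. The *mut-16* transcript itself was at 7.20 and 7.82 CPM in mutants at 25ºC and at 5.46 and 7.42 CPM in mutants at 20ºC, against 24.3 and 22.6 CPM in wild-type at 25ºC and 26 and 26.2 CPM in wild-type at 20ºC (CPM, counts scaled to the library's size after TMM normalization). Every mutant library was below every wild-type library. With 2 replicates per group the result depends on single libraries. With each library left out in turn, the fit called between 58 and 672 genes in the higher direction and between 62 and 417 in the lower one, and the highest counts came without wild-type 20ºC replicate 1. Of the 431 genes, 45 higher and 47 lower kept their call in all 8 of these fits. All 222 and 209 kept their sign under every alternative that was run, but these alternatives reuse the libraries that selected the genes, so this is a weak check.

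Most differing genes changed with heat in one genotype and not by the threshold in the other. Among the 222 genes of the higher direction, 121 were called in wild-type alone, where they were lower at 25ºC, and 63 were called in *mut-16* mutants alone, where they were higher at 25ºC. Another 16 went up in mutants and down in wild-type, 14 went down in both and 8 went up in both. Among the 209 genes of the lower direction, 100 were called in wild-type alone, where they were higher at 25ºC, and 51 in *mut-16* mutants alone, where they were lower at 25ºC. A further 28 went down in mutants and up in wild-type, 22 went up in both, 2 went down in both, and 6 were called in neither genotype. Over all genes tested, heat raised 7.71% and lowered 4.47% in *mut-16* mutants, and in wild-type it changed 20.8% and lowered 9.62%. Seen along the other axis, 111 of the 222 genes were higher in *mut-16* mutants than in wild-type at 25ºC and not called at 20ºC, and 73 were lower in the mutant at 20ºC and not called at 25ºC. Of the 209 genes, 84 were lower in the mutant at 25ºC alone, 50 were lower at both temperatures and 45 were higher in the mutant at 20ºC alone. Over all genes tested the mutation raised 7.68% and lowered 12.5% at 25ºC, and raised 2.68% and lowered 5.75% at 20ºC. These parts share their libraries with the interaction and are a description of it.

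**Figure D1:**
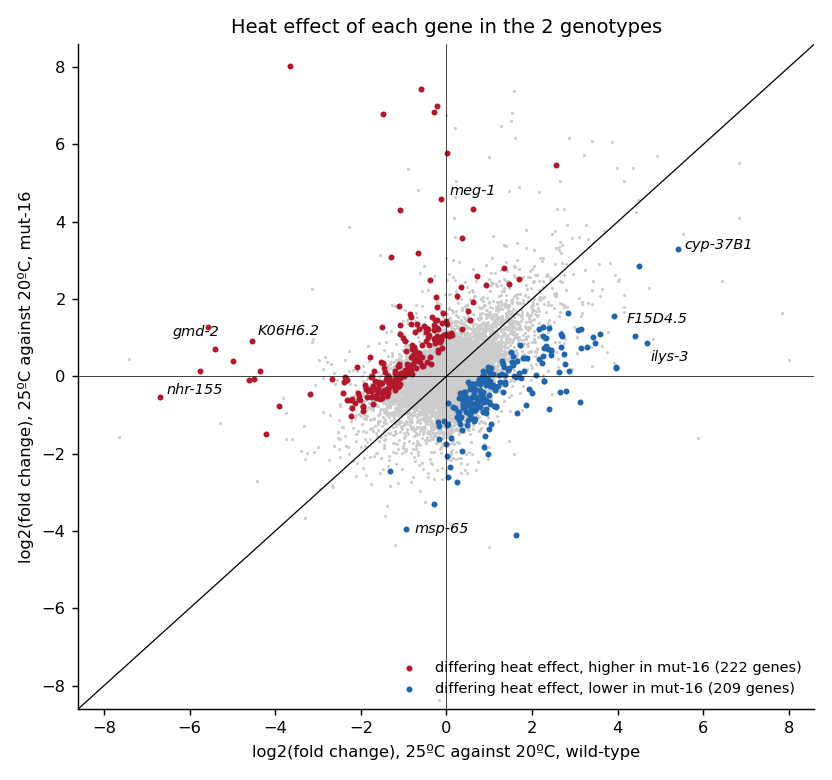
Each point is a gene, with its log2(fold change) between 25ºC and 20ºC in *mut-16* mutants on the vertical axis and in wild-type on the horizontal axis. Genes with a differing heat effect are coloured (222 higher in the mutant in red, 209 lower in blue), the other tested genes are grey, the diagonal marks equal heat effects, and 1 uncalled gene lies outside the axes.

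The 4 group means of each gene were sorted into shapes. A gene was given to a group that stood apart when the gap from that group to the next exceeded the range of the other 3 groups. Otherwise it was called crossed where its heat effects had opposite signs in the 2 genotypes, and graded where they had the same sign. The wild-type at 25ºC stood apart on the low side in 89 of the 431 genes (20.6%, against 12.6% of all genes tested) and on the high side in 41 (9.51%, against 7.41%). The *mut-16* mutant at 20ºC stood apart on the low side in 45 genes (10.4%, against 6.38%) and the wild-type at 20ºC in 41 (9.51%, against 5.10%). The *mut-16* mutant at 25ºC stood apart on the low side in 21 genes (4.87%, against 6.11%) and on the high side in 10 (2.32%, against 4.40%). On the high side the wild-type at 20ºC did so in 19 genes (4.41%, against 4.14%) and the mutant at 20ºC in 7 (1.62%, against 4.89%). Crossed shapes made up 121 genes (28.1%, against 17.6%), of which 43 were in the higher and 78 in the lower direction, and graded shapes 37 (8.58%, against 31.4%). The shape and the call come from the same group means, so these shares describe the genes and test nothing.

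**Figure D2:**
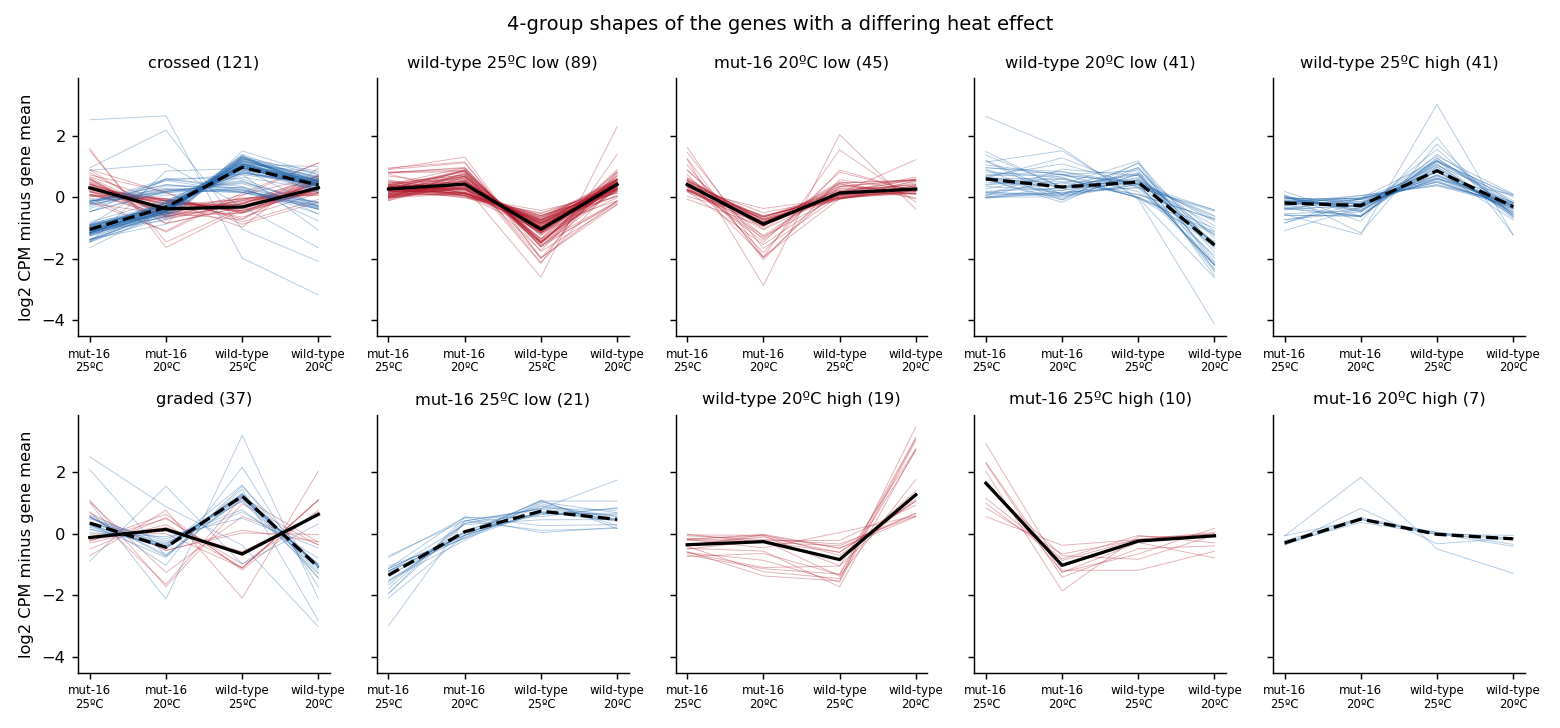
Each thin line is a gene with a differing heat effect, drawn as the mean log2 CPM of each group minus the mean of the gene over the 4 groups (vertical axis), with the groups along the horizontal axis and the number of genes in the panel title. Red lines are higher and blue lines lower in *mut-16* mutants, and the black line is the median of each direction (solid for higher, dashed for lower). The panels with the most genes are the crossed shape (121) and the shape with wild-type low at 25ºC (89).

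Of the 12 largest positive interactions, several belonged to genes that were high in wild-type at 20ºC alone. *gmd-2*, a GDP-mannose dehydratase gene on chromosome I (12292202 to 12293936 in WBcel235), was at 0.982 and 1.19 CPM in *mut-16* animals at 25ºC and at 0.298 and 0.946 CPM in mutants at 20ºC. It was at 0.424 and 0.530 CPM in wild-type at 25ºC, against 20.1 and 21.3 CPM in wild-type at 20ºC. The wild-type libraries at 20ºC were the only high ones, the other 6 all lay at or under 1.19 CPM, and the interaction was 6.10 (standard error 0.60, adjusted p = 0.00032). F56H6.4 on the opposite strand overlaps *gmd-2*, and the sources used here do not say whether the counting used the strand. K06H6.2 (chromosome V, 585772 to 587336) was at 1.96 and 2.31 CPM in mutants at 25ºC and at 1.09 and 1.16 CPM in mutants at 20ºC. In wild-type it was at 0.530 and 1.59 CPM at 25ºC, against 27.9 and 24.2 CPM at 20ºC, and its interaction was 5.47 (standard error 0.49, adjusted p = 0.00026). Its neighbour K06H6.1 had the same shape, with an interaction of 5.39 (standard error 0.58, adjusted p = 0.00053), and so did *nstp-7* beside it (adjusted p = 0.049). *gmd-2*, K06H6.1 and K06H6.2 kept their calls in all 8 fits with a library left out.

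A second run of neighbours on chromosome V (539460 to 553167) held *nhr-155*, C14C6.3, C14C6.6 and C14C6.8. *nhr-155*, a nuclear hormone receptor gene, had an interaction of 6.15 (standard error 0.95, adjusted p = 0.0040), with 1.39 and 0.819 CPM in mutants at 25ºC and 0.994 and 2.11 CPM in mutants at 20ºC. In wild-type it was listed at 0 and 0.0884 CPM at 25ºC, against 5.51 and 6.66 CPM at 20ºC. The wild-type libraries at 25ºC held 1 count of it in all and those at 20ºC 147, a 125-fold difference with a 95% exact interval from 22.1 to 4983 that covers counting error only. C14C6.8 had 2 and 142 counts in these groups, a 60.5-fold difference (interval 16.5 to 505), and was at 0.573 and 0.372 CPM in mutants at 25ºC and at 0.497 and 0.364 CPM in mutants at 20ºC (interaction 5.92, adjusted p = 0.0028). *nhr-155* and C14C6.8 kept their calls in all 8 fits with a library left out, whereas C14C6.6 (4.42, adjusted p = 0.027) kept it in 4 and C14C6.3 (4.51, adjusted p = 0.047) in 2. The value of C14C6.6 was 7.01 without *mut-16* 20ºC replicate 2, and that of C14C6.3 was 8.82 without wild-type 25ºC replicate 1. In both runs wild-type at 20ºC was the one high group, and *nhr-155* was in addition lower in wild-type at 25ºC than in the mutant.

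The mirror shape, in which wild-type at 20ºC stood apart on the low side, held 41 genes. All 41 were higher in wild-type at 25ºC than at 20ºC and all 41 were higher in *mut-16* mutants than in wild-type at 20ºC, with medians of 2.23 and 1.94 on the log2 scale. Both directions follow from how the shape was defined. Their median heat effect in *mut-16* mutants was 0.054, and 8 of them were called up and 2 down with heat in the mutant. The median mutation effect at 25ºC was 0.016, with 7 genes called higher and 3 called lower in the mutant at that temperature. F15D4.5 (chromosome II, 13245376 to 13247774) was at 76.7 and 74.1 CPM in mutants at 25ºC and at 36.5 and 36.7 CPM in mutants at 20ºC. It was at 13.4 and 9.81 CPM in wild-type at 25ºC, against 0.383 and 0.710 CPM in wild-type at 20ºC. No 2 groups overlapped, both genotypes were higher at 25ºC, and the rise in wild-type was the steeper one on the log2 scale (interaction −3.36, standard error 0.36, adjusted p = 0.00053). The pseudogene F56D6.16 (chromosome IV, 3898478 to 3899806) was at 20.2 and 23.1 CPM in mutants at 25ºC and at 41.6 and 36.9 CPM in mutants at 20ºC. It was at 38.5 and 29.7 CPM in wild-type at 25ºC, against 5.36 and 7.64 CPM in wild-type at 20ºC (interaction −3.25, standard error 0.27, adjusted p = 0.0002). F56D6.16 was thus lower at 25ºC in the mutant and higher at 25ºC in wild-type.

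Of these 41 genes, 11 were annotated as a pseudogene or a noncoding RNA. Besides F56D6.16 they included the pseudogenes F57G8.14 (−3.79, adjusted p = 0.010) and Y105C5A.25 (−3.74, adjusted p = 0.0047) and the noncoding RNAs Y53F4B.45 (−3.72, adjusted p = 0.0011) and ZK384.7 (−3.16, adjusted p = 0.00074). Y53F4B.45 was at 5.40 and 5.81 CPM in mutants at 25ºC, 4.77 and 4.73 CPM in mutants at 20ºC and 4.46 and 6.01 CPM in wild-type at 25ºC, against 0.306 and 0.355 CPM in wild-type at 20ºC. The other 6 libraries lay between 4.46 and 6.01 CPM, and those of wild-type at 20ºC were far below them. F57G8.14 had 39 counts in wild-type at 25ºC and 5 at 20ºC, a 9.15-fold difference (95% exact interval 3.6 to 29.7). Among all 209 genes of the lower direction, 19 (9.09%) were pseudogenes, against 2.55% of all genes tested, and in the higher direction 1 of 222 was, Y119D3B.18. F56D6.16, F57G8.14, Y105C5A.25, Y53F4B.45 and ZK384.7 kept their calls in all 8 fits with a library left out. Y53F4B.45, ZK384.7 and Y37E3.30, a protein-coding gene of the same shape (−3.05, adjusted p = 0.00074), overlap genes on the opposite strand.

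*lido-8*, *lido-9*, *lido-11* and *lido-12*, which lie within 10490 bases of chromosome II (2997021 to 3007510), all had wild-type at 20ºC apart on the low side. *lido-8* was at 84.9 and 80.1 CPM in mutants at 25ºC, 75.1 and 85.3 CPM in mutants at 20ºC and 83.5 and 79.8 CPM in wild-type at 25ºC, against 20.7 and 17.7 CPM in wild-type at 20ºC (interaction −2.05, standard error 0.20), and K08A2.9 overlaps it on the opposite strand. *fbxa-24*, an F-box gene, was at 54.2 and 52.5 CPM in mutants at 25ºC and at 47.8 and 50.9 CPM in mutants at 20ºC. It was at 37.3 and 36.4 CPM in wild-type at 25ºC, against 4.82 and 7.1 CPM in wild-type at 20ºC (−2.53, standard error 0.24, adjusted p = 0.00026). Wild-type at 20ºC was the lowest group for both, by a margin far wider than the gap between its replicates. The opposite pattern within the mutant, a peak in *mut-16* mutants at 20ºC, was found for 7 genes, among them the pseudogene Y105C5A.1271 (−2.98, adjusted p = 0.013), whose call held in 5 of 8 fits with a library left out.

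**Figure D3:**
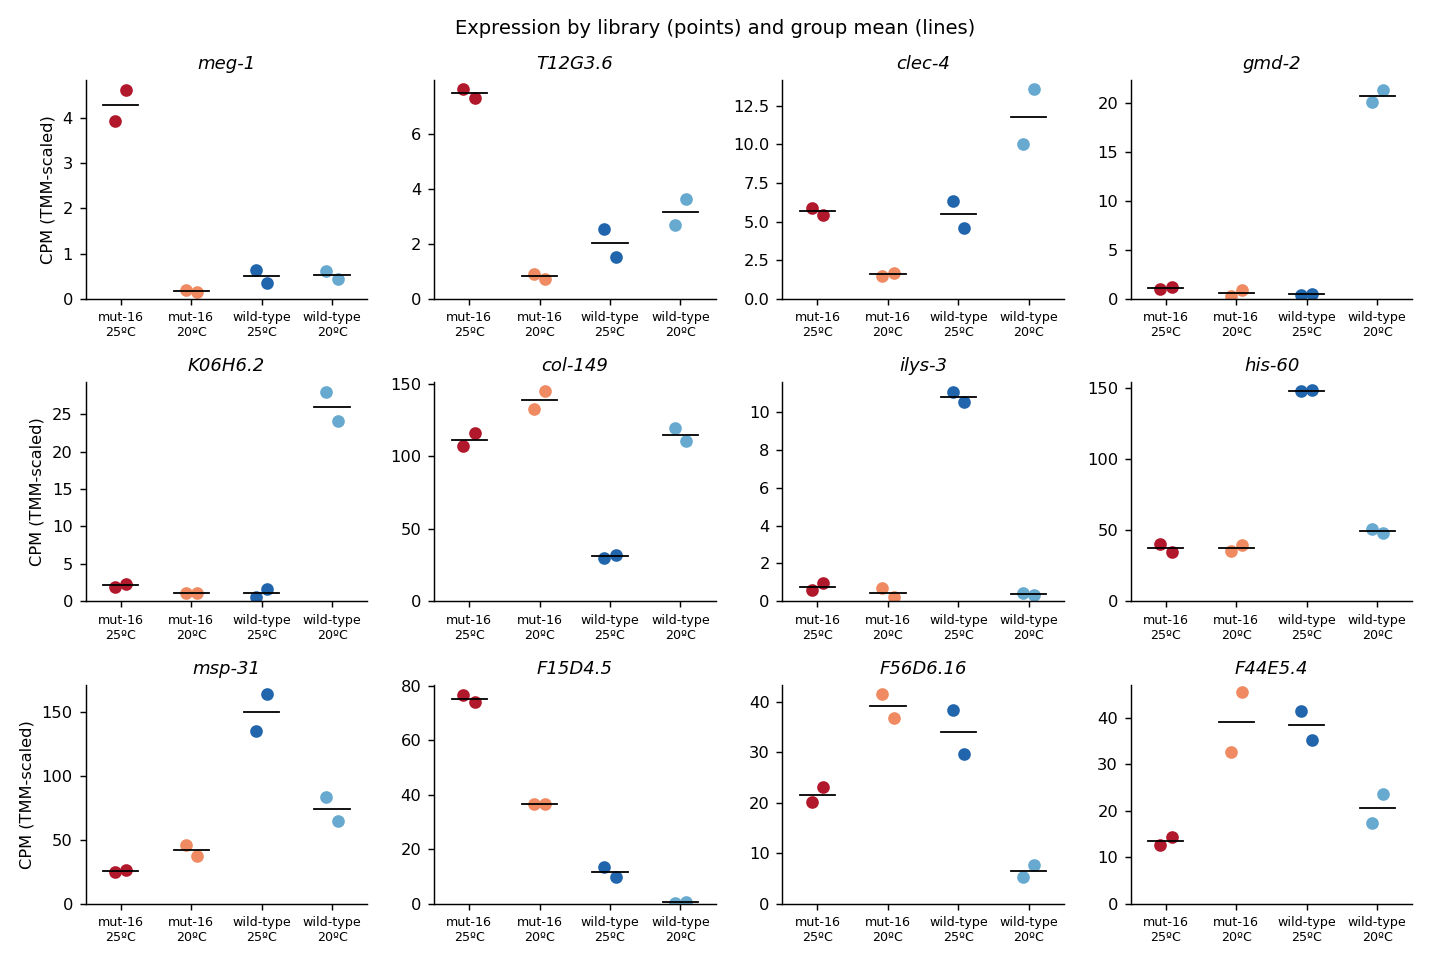
Expression in CPM (TMM-scaled, vertical axis, starting at 0) of 12 genes with a differing heat effect in each of the 8 libraries, by group. Points are libraries and lines are group means. *gmd-2* and K06H6.2 are high in the wild-type libraries at 20ºC alone, F15D4.5 and F56D6.16 are low there, *ilys-3* and *his-60* are high in the wild-type libraries at 25ºC, and *meg-1* is high in the *mut-16* libraries at 25ºC.

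Genes high only in heated mutants were few. *meg-1*, which encodes a disordered protein of the embryonic germ granules, was at 3.93 and 4.62 CPM in *mut-16* animals at 25ºC and at 0.199 and 0.146 CPM in mutants at 20ºC. It was at 0.637 and 0.353 CPM in wild-type at 25ºC, against 0.612 and 0.444 CPM in wild-type at 20ºC. The highest library of another group was at 0.637 CPM, and the interaction was 4.72 (standard error 0.80, adjusted p = 0.0069), a call that held in all 8 fits with a library left out. The mutants had 110 counts of *meg-1* at 25ºC and 4 at 20ºC, a 25.5-fold difference (95% exact interval 9.69 to 95.4). F08F3.6 (5.77, adjusted p = 0.011), F02E8.4 (5.40, adjusted p = 0.0055), T12G3.6 (3.85, adjusted p = 0.0011) and F14D7.2 (3.69, adjusted p = 0.028) also had their highest values in mutants at 25ºC. In mutants at 25ºC and 20ºC, F08F3.6 had 73 and 1 counts, F02E8.4 69 and 3, and F14D7.2 113 and 5. The sizes of these interactions thus rest on few counts, and the interval of the F08F3.6 fold difference in mutants ran from 11.8 to 2713. T12G3.6 was at 7.61 and 7.30 CPM in mutants at 25ºC and at 0.894 and 0.728 CPM in mutants at 20ºC, and at 2.55 and 1.5 CPM in wild-type at 25ºC, against 2.68 and 3.64 CPM in wild-type at 20ºC. Its call held in all 8 fits, those of F08F3.6 and F02E8.4 in 7, failing without *mut-16* 20ºC replicate 1 for F08F3.6 (adjusted p = 0.053) and without *mut-16* 20ºC replicate 2 for F02E8.4 (adjusted p = 0.053), and that of F14D7.2 in 1. The F-box gene *fbxb-97* had 71 counts in mutants at 25ºC and 0 at 20ºC, where it was thus at least 22-fold lower by a floor of 3 counts over the group (adjusted p of the interaction 0.034, a call that held in 1 of 8 fits). In wild-type *fbxb-97* had 0 counts in both libraries at 25ºC, and 3 and 0 counts at 20ºC. Its fitted interaction depends on the prior count and is not given.

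Of the 35 gene lists, the major sperm protein family held the most genes of the lower direction. The major sperm proteins are small cytoskeletal proteins that drive the crawling of nematode sperm, and they are encoded by many near-identical genes. Of 30 members tested, 21 had a lower heat effect in *mut-16* mutants (70%, against 1.5% of all genes tested) and none a higher one. All 30 interactions were below 0 with a median of −1.42, against 0.0097 over all genes, and the range was −2.99 to −0.16. Summed over the family, expression was 444 and 461 CPM in *mut-16* animals at 25ºC and 958 and 706 CPM in mutants at 20ºC. It was 2205 and 2583 CPM in wild-type at 25ºC, against 1956 and 1318 CPM in wild-type at 20ºC. The mutant was lower at 25ºC and wild-type higher, and no library of one temperature overlapped with the other in either genotype. By gene, 20 of the 30 were called down with heat in the mutant and none up, and in wild-type 11 were called up and 3 down.

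*msp-31* (chromosome II, 4916179 to 4916562) was at 24.9 and 26.1 CPM in mutants at 25ºC and at 46.0 and 37.6 CPM in mutants at 20ºC. It was at 136 and 165 CPM in wild-type at 25ºC, against 83.7 and 64.6 CPM in wild-type at 20ºC (interaction −1.73, standard error 0.23, adjusted p = 0.0016). *msp-40* (−1.58, adjusted p = 0.0035), *msp-3* (−1.78, adjusted p = 0.0048) and *msp-152* (−1.78, adjusted p = 0.0048) had the same crossed shape. *msp-65* was lower at 25ºC in both genotypes, at 0.164 and 0.372 CPM in mutants at 25ºC and at 5.07 and 3.71 CPM in mutants at 20ºC, and at 5.94 and 5.66 CPM in wild-type at 25ºC, against 12.3 and 10.1 CPM in wild-type at 20ºC. Its drop in the mutant was the larger one (interaction −2.99, standard error 0.50, adjusted p = 0.0068), and its call was lost only without *mut-16* 25ºC replicate 1 (adjusted p = 0.058). Since the members share most of their sequence, the division of reads among them is uncertain, and none of the 30 had whole counts throughout. With each library left out, between 10 and 26 members were called, fewest without *mut-16* 25ºC replicate 1 and most without wild-type 20ºC replicate 1.

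Other sperm genes had fewer calls in number. Of 46 tested genes whose class names come from sperm (*ssp*, *ssq*, *sss*, *msd*, *spe* and *fer*), 7 were lower (15.2%, against 1.5% of all genes tested) and none higher, and the median was −0.86. They were *ssp-10* (−1.49), F44D12.7 (−1.33), *msd-4* (−1.15), *sss-1* (−1.12), *msd-2* (−1.08), *ssp-16* (−1.02) and *ssq-1*. No call was left for this list without *mut-16* 20ºC replicate 1 or without wild-type 25ºC replicate 2, and 14 were made without wild-type 20ºC replicate 1. The summed level was 299 and 319 CPM in mutants at 25ºC and 455 and 378 CPM in mutants at 20ºC, and 953 and 1192 CPM in wild-type at 25ºC, against 838 and 771 CPM in wild-type at 20ºC. *gsp-3*, a sperm PP1 phosphatase gene, was called among 17 other sperm genes (−1.11, adjusted p = 0.047) and kept that call in 1 of 8 fits. *gsp-3* was the 1 called gene of these 17 (5.88%, against 1.5% of all genes tested in the lower direction). Of the 17 interactions, 14 were below 0, with a median of −0.59. *spch-1* and *spch-3*, whose products are bound to sperm chromatin, were down with heat in mutants and up in wild-type, with interactions of −1.40 and −1.21.

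Another 2 sperm lists had no called gene. Among 32 genes of the nematode-specific peptide families the median was −0.61, and 28 interactions were below 0. Of these 32, 12 had an unadjusted p under 0.05 in edgeR (11 lower and 1 higher, 37.5%, against 19.5% of all genes tested). DESeq2 called none of them. Among 12 spermatid activation genes the median was −0.54, and 9 were below 0. Of these 12, 3 had an unadjusted p under 0.05 (2 lower and 1 higher, 25%, against 19.5%), and DESeq2 called 1 lower. Over all 13972 genes tested, 1263 were lower and 1458 higher at an unadjusted p under 0.05. Of the single genes that the study followed, *alg-3* was at 5.97 and 5.88 CPM in mutants at 25ºC and at 11 CPM in both mutant libraries at 20ºC, and at 17.3 and 31.1 CPM in wild-type at 25ºC, against 19.8 and 19.6 CPM in wild-type at 20ºC. Its interaction of −1.20 (standard error 0.33) missed the threshold (adjusted p = 0.067). With DESeq2 it was −1.24 and passed (adjusted p = 0.035). It also passed without wild-type 25ºC replicate 1 (adjusted p = 0.013) or without wild-type 20ºC replicate 1 (adjusted p = 0.043), and was −0.71 without wild-type 25ºC replicate 2. *alg-4* was at −1.03 (adjusted p = 0.11, or 0.042 without wild-type 20ºC replicate 1). The ferlin gene *fer-1* was at −1.55 (adjusted p = 0.054), a value that became −1.92 without wild-type 20ºC replicate 1 (adjusted p = 0.0084), −1.95 without replicate 1 of wild-type at 25ºC (adjusted p = 0.016) and −0.95 without its replicate 2, and it passed with DESeq2 (adjusted p = 0.011). *spe-11* was at −1.30 (adjusted p = 0.067), with 0.029 without replicate 1 of wild-type at 20ºC and 0.044 without replicate 1 of wild-type at 25ºC, and *spe-29* had at most 10 counts in a library and was not tested. *swm-1*, a protease inhibitor gene that restrains sperm activation, was at 1.16 (adjusted p = 0.20). Its wild-type libraries at 20ºC were far apart, at 24.7 and 68.2 CPM, and without replicate 1 of that group the interaction was 1.69 (adjusted p = 0.0014), against 0.26 without replicate 2. C15H11.1 (−1.60, adjusted p = 0.17), *clp-8* (−0.59), *myo-3* (−0.31), *rpl-32* (−0.12), *rab-3* (0.05) and *faah-1* (0.42) did not pass.

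Of 28 oocyte and eggshell genes tested, 10 had a higher heat effect in *mut-16* mutants (35.7%, against 1.59% of all genes tested) and none a lower one, and all 28 interactions were above 0 with a median of 1.13. The summed level was 831 and 897 CPM in mutants at 25ºC and 504 and 468 CPM in mutants at 20ºC, and 646 and 713 CPM in wild-type at 25ºC, against 905 and 598 CPM in wild-type at 20ºC. The lowest group was the mutant at 20ºC, and the wild-type libraries at 20ºC spanned those at 25ºC. Heat raised 24 of the 28 genes in mutants, and in wild-type 1 was called up and 1 down. *puf-5*, which encodes an RNA-binding repressor of oocyte transcripts, was at 33.1 and 34.6 CPM in mutants at 25ºC and at 12.8 and 12.2 CPM in mutants at 20ºC. It was at 24.2 and 25.3 CPM in wild-type at 25ºC, against 30.5 and 19.4 CPM in wild-type at 20ºC (interaction 1.45, standard error 0.27, adjusted p = 0.011).

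The other called oocyte genes were *oma-2* (1.86), a regulator of oocyte maturation, *egg-2* (1.73), *cpg-3* (1.72) and *cpg-2* (1.07), genes of the egg surface and eggshell, *egg-5* (1.49), a gene of egg activation, and *pos-1* (1.71), *mex-1* (1.49), *mex-6* (1.22) and *mex-5* (1.13), zinc-finger genes of the early embryo. This count rested on single libraries. It was 0 without either library of *mut-16* mutants at 25ºC, 1 without *mut-16* 20ºC replicate 2 or wild-type 25ºC replicate 1, and rose to 21 where replicate 2 of wild-type at 20ºC was left out, while DESeq2 called 14. Genes of oocytes and early embryos outside the list had similar values, among them *zif-1* (1.38), which encodes a substrate-binding subunit of an embryonic ubiquitin ligase, the B-type cyclin genes *cyb-2.1* (1.64) and *cyb-2.2* (1.45), and the kinesin gene *klp-15* (1.28). They were picked here after their values were seen.

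**Figure D4:**
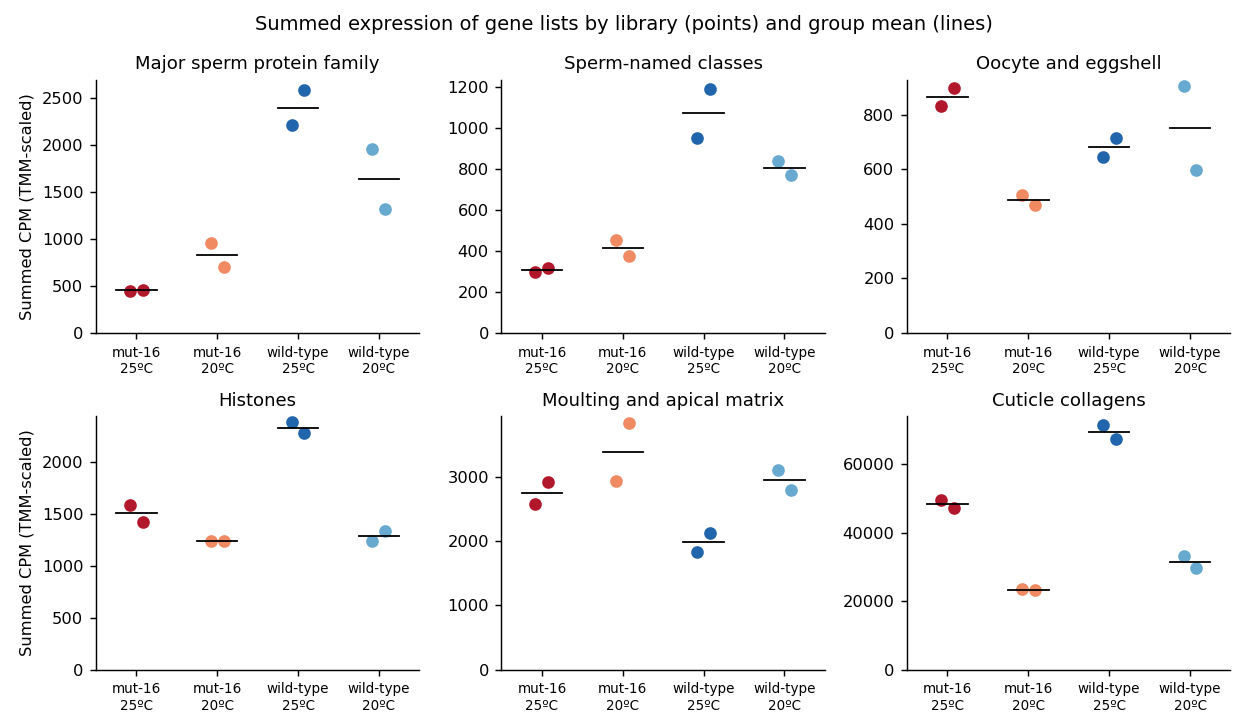
Summed expression in CPM (TMM-scaled, vertical axis, starting at 0) of 6 gene lists in each of the 8 libraries, by group. Points are libraries and lines are group means. The major sperm protein sum is 444 and 461 CPM in *mut-16* animals at 25ºC and 2205 and 2583 CPM in wild-type at 25ºC, and the oocyte and eggshell sum is lowest in *mut-16* mutants at 20ºC.

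Genes of the remaining germline and of small RNA pathways differed in few cases. Of 19 germline stem cell and P granule genes 2 were called (10.5%, against 1.59% of all genes tested), *meg-1* and *gld-3* (1.12, adjusted p = 0.027, held in 2 of 8 fits), both higher. No gene was called among 25 meiotic genes (5 at an unadjusted p under 0.05 in edgeR, none by DESeq2), 17 sex determination genes (4 and none), 18 genes of the mutator complex and RNA-dependent RNA polymerases (2 and none), 19 Argonautes (4, with 1 called lower by DESeq2) and 11 genes of the ERI complex and 26G-RNA factors (1 and none). The medians of these lists lay between −0.05 and 0.39. The share of all genes with an unadjusted p under 0.05 was 19.5%, the background for these counts.

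Of the 89 genes with wild-type low at 25ºC, 10 were cuticle collagen genes and 3 were moulting and apical matrix genes, against 143 and 27 of all 13972 genes tested. Of 143 cuticle collagen genes tested, 15 had a higher heat effect in *mut-16* mutants and 7 a lower one (15.4% called in all, against 3.08% of all genes tested), and 10 of the 15 were low in wild-type at 25ºC. *col-149* was at 107 and 116 CPM in mutants at 25ºC and at 132 and 145 CPM in mutants at 20ºC. It was at 29.9 and 32.2 CPM in wild-type at 25ºC, against 119 and 110 CPM in wild-type at 20ºC (interaction 1.57, standard error 0.18, adjusted p = 0.00074). Only the wild-type libraries at 25ºC were apart. *dpy-2* (1.28), *dpy-7* (1.05), *dpy-9* (1.38) and *dpy-10* (1.06), collagens needed for the annular furrows or the body shape, had this shape, as did *col-98* (1.32) and *col-103* (1.23). Among the 7 lower collagens, *col-39* (−1.89) and *col-41* (−1.57) kept their calls in all 8 fits with a library left out, as did *col-149*, *col-98* and *dpy-2*. *col-92* and *col-93* rose with heat in both genotypes and by less in the mutant, with interactions of −0.97 and −1.23. The summed collagen level was higher at 25ºC in both genotypes, 49631 and 47406 CPM in mutants at 25ºC and 23473 and 23351 CPM in mutants at 20ºC, and 71619 and 67534 CPM in wild-type at 25ºC, against 33122 and 29821 CPM in wild-type at 20ºC.

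Of 27 moulting and apical matrix genes, 3 were called, all higher (11%, against 1.59% of all genes tested). *dpy-6* (1.68, adjusted p = 0.019), a mucin-like protein gene, was at 25.4 and 34.6 CPM in mutants at 25ºC and at 27.9 and 41.4 CPM in mutants at 20ºC, and at 3.29 and 4.24 CPM in wild-type at 25ºC, against 15.5 and 12.6 CPM in wild-type at 20ºC. *let-653* (1.23) and *lpr-3* (0.97), genes of the transient matrix that shapes epithelia before the cuticle, also had their lowest values in wild-type at 25ºC. These 3 calls held in 4, 3 and 3 of the 8 fits with a library left out, and 22 of the 27 genes were above 0 with a median of 0.60. Of 66 hedgehog-related and patched-related genes, which in nematodes are expressed largely in the epidermis, 3 were higher and 2 lower (7.58% called, against 3.08% of all genes tested). *grd-10* was at 16.8 and 16.3 CPM in mutants at 25ºC and at 18.8 and 15.9 CPM in mutants at 20ºC. It was at 1.91 and 2.12 CPM in wild-type at 25ºC, against 10.6 and 15.2 CPM in wild-type at 20ºC (2.60, standard error 0.32, adjusted p = 0.0009). *wrt-10* (1.39) and *grd-3* (1.32) had the same shape, and *grl-4* (−1.66) and *grl-21* (−2.15) rose with heat in wild-type, *grl-4* also in the mutant. The calls of *grd-10*, *wrt-10* and *grl-4* held in all 8 fits, and those of *grd-3* and *grl-21* in 3.

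Many cuticle and matrix transcripts are made in pulses timed to the moult. Timing genes gave no called member. Of 11 heterochronic genes 1 had an unadjusted p under 0.05 (9.09%, against 19.5% of all genes tested). DESeq2 called none of these 11, and their median was 0.01. Of 7 genes in a list of vitellogenins and the adult collagen gene *col-19*, 2 had an unadjusted p under 0.05 (28.6%, against 19.5%). DESeq2 called none of these 7, and their median was 0.77. Their summed level was 302 and 399 CPM in mutants at 25ºC, 290 and 403 CPM in mutants at 20ºC, 803 and 470 CPM in wild-type at 25ºC and 608 and 733 CPM in wild-type at 20ºC. The part of stage within the L4 in these heat effects was not tested.

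Histone genes had a peak in wild-type at 25ºC in 8 of 10 called cases. Of 50 tested, 10 had a lower heat effect in *mut-16* mutants and none a higher one (20.0%, against 1.5% of all genes tested), 43 were below 0, and the median was −0.65. *his-60* was at 40.3 and 34.4 CPM in mutants at 25ºC and at 35.3 and 39.3 CPM in mutants at 20ºC. It was at 148 CPM in both wild-type libraries at 25ºC, against 51.1 and 47.9 CPM in wild-type at 20ºC (−1.58, standard error 0.19, adjusted p = 0.0009). Heat raised it in wild-type, and the mutant libraries of the 2 temperatures overlapped. *his-17* (−1.25) and *his-48* (−1.24) had the same shape, and F54E12.1 (−2.25) and H02I12.7 had wild-type at 20ºC apart on the low side. The counting of these histone genes is uncertain because copies are near-identical. The messages of the histones made during DNA replication lack a polyadenylate tail, and these libraries were selected for such tails. With each library left out, between 2 and 14 histone genes were called, fewest without *mut-16* 25ºC replicate 2, and *his-60* and F54E12.1 were called in all 8 fits.

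Metabolic and defence genes were found in both directions. *ilys-3*, an invertebrate-type lysozyme gene, was at 0.573 and 0.968 CPM in mutants at 25ºC and at 0.695 and 0.218 CPM in mutants at 20ºC. It was at 11 and 10.5 CPM in wild-type at 25ºC, against 0.459 and 0.355 CPM in wild-type at 20ºC (−3.82, standard error 0.79, adjusted p = 0.020). The call was lost without *mut-16* 25ºC replicate 1 (adjusted p = 0.060) and without *mut-16* 20ºC replicate 1 (−2.89, adjusted p = 0.15). *icl-1*, the gene of the glyoxylate cycle enzymes, was at 583 and 556 CPM in mutants at 25ºC and at 570 and 667 CPM in mutants at 20ºC, and at 1370 and 1289 CPM in wild-type at 25ºC, against 626 and 696 CPM in wild-type at 20ºC (−1.13, adjusted p = 0.0051). The desaturase genes *fat-6* (−0.80) and *fat-1* (−0.81) had the same peak in wild-type at 25ºC, and each kept its call in 2 of 8 fits. Of 134 cytochrome P450, UDP-glucuronosyltransferase and glutathione S-transferase genes, which act in detoxification, 6 were higher and 1 lower (5.22% called, against 3.08% of all genes tested). The 6 were *cyp-35C1* (1.49), *ugt-66* (1.47), *ugt-25* (1.42), *gst-22* (1.36), *ugt-28* (1.0) and *ugt-26* (0.87), and the call of *cyp-35C1* held in all 8 fits, those of *ugt-25*, *ugt-66* and *gst-22* in 4, 3 and 2. *cyp-35C1* was at 21.4 and 19.7 CPM in mutants at 25ºC and at 9.94 and 9.53 CPM in mutants at 20ºC, and at 21.4 and 19.7 CPM in wild-type at 25ºC, against 30.1 and 24.2 CPM in wild-type at 20ºC (standard error 0.23, adjusted p = 0.0041). The lower gene, *cyp-37B1*, rose with heat in both genotypes, to 14.3 and 11 CPM in mutants at 25ºC, against 1.69 and 0.946 CPM in mutants at 20ºC, and to 53.6 and 62.4 CPM in wild-type at 25ºC, against 1.68 and 0.977 CPM in wild-type at 20ºC (−2.11, standard error 0.46, adjusted p = 0.025, held in 4 of 8 fits).

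Of 48 genes of intestinal proteases, lysozymes and saposins, 6 were lower and 2 higher (16.7% called, against 3.08% of all genes tested). *cpr-4* (−1.08) and *cpr-5* (−1.13), cathepsin B-like protease genes, were lowest in heated mutants. *cpr-4* was at 516 and 498 CPM in mutants at 25ºC and at 1140 and 1107 CPM in mutants at 20ºC, and at 880 and 924 CPM in wild-type at 25ºC, against 983 and 902 CPM in wild-type at 20ºC. Both calls were lost without either library of *mut-16* mutants at 25ºC, with adjusted p between 0.051 and 0.058. *spp-2*, a saposin-like gene, was down with heat in mutants and up in wild-type (−1.95, adjusted p = 0.0010), and *lys-3*, a lysozyme gene, was up in mutants and down in wild-type (2.43, adjusted p = 0.017, held in 5 of 8 fits). The others called were *spp-8* (−1.39), *cpr-1* (−0.86) and *spp-13* (1.06). Among 105 C-type lectin genes 5 were higher and 2 lower (6.67% called, against 3.08% of all genes tested). *clec-4* was at 5.89 and 5.44 CPM in mutants at 25ºC and at 1.49 and 1.67 CPM in mutants at 20ºC, and at 6.37 and 4.59 CPM in wild-type at 25ºC, against 10 and 13.6 CPM in wild-type at 20ºC (2.93, standard error 0.38, adjusted p = 0.0011). The genotypes overlapped at 25ºC and were apart at 20ºC for *clec-4*, and *clec-52* (1.31) also had its lowest values in mutants at 20ºC. Both calls held in all 8 fits, whereas *clec-229* (2.92), *clec-117* (−2.66) and *clec-63* (−0.85) lost theirs in 8, 5 and 4.

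Heat-inducible chaperone genes included 3 with a lower heat effect in the mutant, of 16 tested (18.8%, against 1.5% of all genes tested), and all 3 encode HSP70 proteins. F44E5.4 was at 12.6 and 14.4 CPM in mutants at 25ºC and at 32.7 and 45.5 CPM in mutants at 20ºC, and at 41.5 and 35.3 CPM in wild-type at 25ºC, against 17.4 and 23.7 CPM in wild-type at 20ºC. It was lower at 25ºC in the mutant and higher at 25ºC in wild-type (−2.44, standard error 0.28, adjusted p = 0.00074), a call that held in all 8 fits. Its near-identical neighbour F44E5.5 (−1.79) and *hsp-70* (−1.43) had the same crossed shape, with calls that held in 4 and 3 fits. F44E5.4 and F44E5.5 share reads, so their counts are not independent. *hsp-16.2* rose with heat in both genotypes, by 1.69 in mutants and 2.17 in wild-type, and its interaction of −0.49 was not called (adjusted p = 0.38). Of the list's 16 interactions, 10 were below 0 and 6 above, from −2.44 to 2.46, with a median of −0.15. At an unadjusted p under 0.05 in edgeR, 5 were lower and 3 higher (50% of the list, against 19.5% of all genes tested). No gene was called among 18 constitutive chaperones (2 at an unadjusted p under 0.05, none by DESeq2) or 76 ribosomal protein genes. Of these 76, 16 were lower and none higher at an unadjusted p under 0.05 in edgeR. Over all 13972 genes tested, 1263 were lower and 1458 higher by that measure. DESeq2 called 2 of the 76 lower. Of the 76 interactions, 66 were below 0 and 10 above, with a median of −0.34. Heat was called up for 48 of the 76 in wild-type and for none in *mut-16* mutants. None was called down with heat in either genotype.

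**Figure D5:**
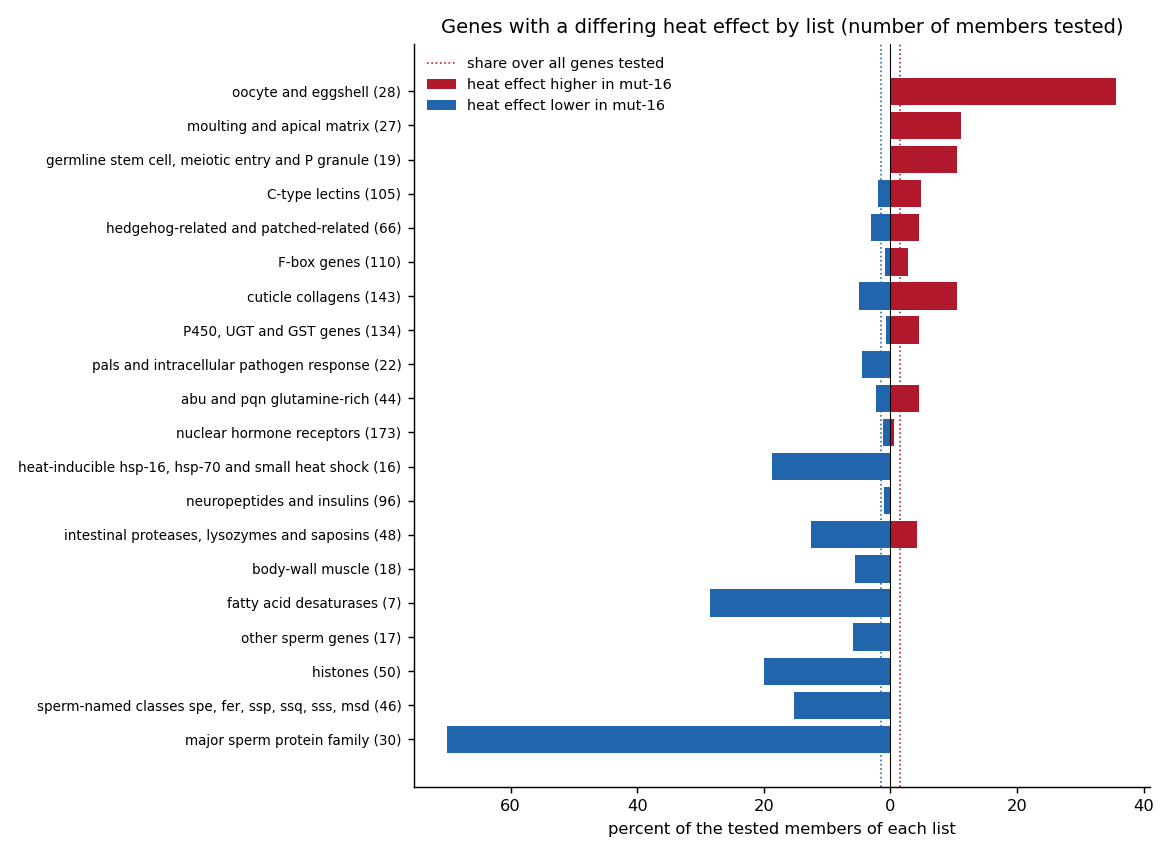
Percent of the tested members of each list whose heat effect was higher (red, to the right) or lower (blue, to the left) in *mut-16* mutants, for the 20 lists with a called gene, with the number tested in brackets. Dotted lines mark the shares over all genes tested, 1.59% and 1.5%, and the longest bars are those of the major sperm protein family (21 of 30 lower) and of the oocyte and eggshell list (10 of 28 higher).

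Among the 431 genes, those called in opposite directions with heat in the 2 genotypes numbered 16 and 28, and such genes were not counted over all genes tested. Among the 16 that went up in mutants and down in wild-type were *irg-4*, an infection response gene, *ftn-1*, a ferritin gene of iron storage, *fkb-3*, a peptidyl-prolyl isomerase gene, *dao-4* and *clec-4*. *irg-4* was at 108 and 105 CPM in mutants at 25ºC and at 56.2 and 41.1 CPM in mutants at 20ºC, and at 73.2 and 65.1 CPM in wild-type at 25ºC, against 97.7 and 134 CPM in wild-type at 20ºC (1.88, standard error 0.25, adjusted p = 0.0014). Among the 28 that went down in mutants and up in wild-type were 6 major sperm protein genes, *spch-1*, *spch-3*, *msd-2*, F44E5.4, and 3 genes of energy metabolism, *acs-2* (−1.40), an acyl-CoA synthetase gene, *cpt-4* (−1.15), a carnitine palmitoyltransferase gene, and *adh-1* (−1.22), an alcohol dehydrogenase gene. *acs-2* was at 21.5 and 20.1 CPM in mutants at 25ºC and at 33.3 and 32.5 CPM in mutants at 20ºC, and at 44.7 and 38.1 CPM in wild-type at 25ºC, against 25.4 and 24.1 CPM in wild-type at 20ºC. No 2 groups overlapped for *acs-2*, whereas the *irg-4* values of mutants at 25ºC lay within the range of wild-type at 20ºC. The genes of this paragraph outside the lists were chosen after their values were seen.

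In the genome, differing genes lay on all 6 chromosomes. Chromosome IV held 65 of the 209 lower genes (31.1%, against 17.4% of all genes tested) and chromosome V 67 of the 222 higher ones (30.2%, against 19.7%). Of the 431 genes, 118 (27.4%) lay within 10000 bases of another gene called in the same direction, in 50 runs. No such share was computed for the other tested genes, so this count is a description only. The longest run, on chromosome IV from 9832488 to 9853609, held 7 lower genes, W08D2.9, *msp-81*, *msp-10*, *msp-56*, K07F5.8, *ssp-10* and *ssq-1*. Major sperm protein genes are clustered on chromosomes II and IV, which held 11 and 10 of the 21 called. K07F5.8 was at 0.164 and 0.149 CPM in mutants at 25ºC and at 1.69 and 1.60 CPM in mutants at 20ºC, and at 1.38 and 2.03 CPM in wild-type at 25ºC, against 1.76 and 2.49 CPM in wild-type at 20ºC (−3.02, adjusted p = 0.034, held in 3 of 8 fits). C47E12.12, also on chromosome IV, had a like shape (−2.96, adjusted p = 0.019, held in 3). Lower genes had a median exon length of 878 bases and higher genes of 1133 bases, against 1382 bases over all genes tested. Of the 431 genes, 112 (26%) overlapped a gene on the opposite strand, against 33.2% of all genes tested. Besides those marked above, they included *col-149*, *col-39*, *col-41*, *dpy-6*, *hsp-70*, *cyp-37B1*, *ugt-25*, *gst-22* and *cpg-3*. Of the 431 genes, 299 had whole counts in every library, and *col-149*, *col-39*, *col-41* and *dpy-6* did not.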

How the data were processed

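The 8 files hold expected counts per gene, deposited by the authors for 1 library each. The authors selected polyadenylated RNA, made directional libraries, trimmed reads with Cutadapt, quantified them with Salmon on WS258 transcripts and summed transcripts per gene, without scaling; reads were also mapped with HISAT2, per the labels' processing notes. Whether counting used the strand is not given in the sources used here. After 4 names that occur repeatedly, all at 0 counts, were left out, 46253 of 46445 names (99.6%) matched the Ensembl 115 annotation of WBcel235, which gave symbols and coordinates, and 192 did not (at most 0.0672% of a library). No sequences are reported here.

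Counts were rounded, filtered by filterByExpr (minimum count 10, total 15), TMM-scaled and fitted in edgeR 4.0.16 (R 4.3.3) on 4 groups with the quasi-likelihood test. Calls required a p of at most 0.05 after Benjamini-Hochberg adjustment. The common dispersion was 0.0153. Log CPM used a prior count of 2. Replicates differed by more than counting noise and were kept apart. Alternatives were DESeq2 1.42.0, RLE or total-count scaling, other filters, ribosomal RNA left out, a log2 threshold of 1, a replicate block and each library left out. On simulated data (13830 genes), the fit recovered 13.8% of interactions of log2 size 1 and 82.1% of size 2. Every simulated gene had the same dispersion, the mean over genes, so these shares may differ from those in the data. Named genes were the 12 largest in each direction at a mean log2 CPM of at least 0, called genes of the 35 lists (5 at most per list), *mut-16* and genes the study followed; other genes named were chosen after their values were seen. The members and lists were chosen with earlier results of these data known. Intervals and floors cover counting error only. Figures used Python 3.11.15 and matplotlib 3.10.9.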

Additional observations from a re-analysis of the deposited data

Results flagged for a closer look

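The heat effect differed between *mut-16* mutants and wild-type, by the test of the interaction itself, in 222 genes in the higher and 209 genes in the lower direction. Within these, 16 genes were called up with heat in mutants and down in wild-type, and 28 were called down in mutants and up in wild-type. These heat calls share their libraries with the interaction, and opposite calls were not counted over all genes tested.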

How the results depend on the processing

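Of the 222 higher and 209 lower genes, 192 and 173 lay beyond a log2 threshold of 1. The counts of 222 and 209 stayed within 1.5 times with RLE scaling (198 and 233), at least 10 counts in every library (194 and 197), ribosomal RNA left out (222 and 210) and DESeq2 (224 and 286). With the replicate number as a block they were 159 and 157. The numbers are not taken as pairs, since the deviations of same-numbered libraries correlated between −0.16 and 0.073. They moved with total-count scaling, to 517 and 139 (78.8% higher, against 51.5% with TMM), which shifted the median interaction of all genes from 0.0097 to 0.19. They also moved without a filter beyond 1 count, to 668 and 543 of 19449 genes. With each library left out the counts lay between 58 and 672 and between 62 and 417, and between 57 and 210 of the higher and 61 and 204 of the lower genes were shared with the full fit. Leaving out a library leaves fewer samples to estimate the spread.

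Among lists, the major sperm protein count (21) stayed within 1.5 times outside the left-out fits. Among others, the oocyte and eggshell count (10) was 16 with total-count scaling and 23 without the filter, the histone count (10) was 6, 19 and, with the block, 6, and the lower collagen count (7) was 13 with DESeq2. The rpl-32 interaction log2 fold change, not called, was at 0.0698 with total-count scaling and lay between −0.44 and 0.26 over the left-out fits, changing sign without *mut-16* 20ºC replicate 1. The rab-3 interaction log2 fold change lay between −0.0886 and 0.15, changing sign where *mut-16* 25ºC replicate 2 was left out. DESeq2 gave no adjusted p for 15 of the 102 named genes, among them *nhr-155*, C14C6.8, C14C6.3, *meg-1*, F08F3.6, F02E8.4 and F14D7.2. Depth limits genes near the filter most.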
